A study of Mus musculus with 4 samples.

Results

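The microRNA genes that gave at least 20 reads in poly(A) RNA of mouse embryonic stem (ES) cells were described, 29 genes of 231 microRNA genes and of 22718 genes in all. They were chosen by their measured values: the symbol had to start with mmu-mir or mmu-let, and the read counts of the 2 libraries had to sum to 20 or more. Of the 231 microRNA genes, 62 had no read in either library, 139 had 1 to 19 reads together and 30 reached the minimum. The gene mmu-mir-675 reached it and was left out by name, and mmu-mir-431, which was also to be left out, was under the minimum. The RNA-seq comprised 1 wild type (WT) library and 1 library of the Prep1-/- KO2 line, both labelled strain C57BL/6, and both lines were grown on gelatin with serum and leukemia inhibitory factor. Each genotype was thus 1 line and 1 library, so that genotype, line and library cannot be told apart and no difference has a replicate check. A Prep1 ChIP-seq peak list from 1 immunoprecipitation was also used, whose label gives strain C57BL/6 while its protocol names R1 ES cells. The antibody was raised against Prep1 and, by the methods of the study, also binds Prep2 weakly.

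Prep1 is a homeodomain transcription factor of the TALE class, encoded by Pknox1, that binds DNA with Pbx partners. MicroRNA genes are transcribed as long primary transcripts, from which the nuclear enzyme Drosha cuts a hairpin and the cytoplasmic enzyme Dicer cuts the mature microRNA, whose seed pairs with target mRNAs. Mature microRNAs carry no poly(A) tail and are shorter than the 50 bp reads, so that reads in poly(A) libraries come from primary transcripts or from the transcripts in which a hairpin lies. In mouse ES cells the mir-290 to mir-295 cluster is known as the main source of microRNAs that favour passage from G1 into S phase.

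RefSeq (GRCm38.p6) held mature sequences for 22 of the 29 genes, 34 mature forms with 31 different seeds (bases 2 to 8, in capitals below). A seed was shared by members of the mir-290 to mir-295 cluster alone, so their forms are shown first, together with miR-20a-5p of the mir-17-92 cluster for comparison.
mmu-miR-291a-3p: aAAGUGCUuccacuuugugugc
mmu-miR-294-3p: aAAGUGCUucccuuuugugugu
mmu-miR-295-3p: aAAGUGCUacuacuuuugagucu
mmu-miR-291b-3p: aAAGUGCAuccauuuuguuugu
mmu-miR-20a-5p: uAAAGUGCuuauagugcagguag
mmu-miR-291a-5p: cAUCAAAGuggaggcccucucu
mmu-miR-291b-5p: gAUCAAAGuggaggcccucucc
The seed AAGUGCU was found in 3 of these forms and in 5 mouse forms of RefSeq in all, and AUCAAAG in 2 forms here and in 2 in RefSeq. The seed AAGUGCA of miR-291b-3p occurs in 2 RefSeq forms and AAAGUGC of miR-20a-5p in 7.

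The next set belongs to the genes whose reads differed most between the libraries.
mmu-miR-24-3p: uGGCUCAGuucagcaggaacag
mmu-miR-24-2-5p: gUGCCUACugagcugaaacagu
mmu-miR-705: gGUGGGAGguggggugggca
mmu-miR-293-3p: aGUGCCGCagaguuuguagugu
mmu-miR-293-5p: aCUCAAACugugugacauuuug
mmu-miR-1191a: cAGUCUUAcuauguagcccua
MiR-24-3p and miR-24-2-5p are the arms of the mir-24-2 hairpin, and the seed of miR-24-3p occurs in 5 RefSeq forms. The seed of miR-293-3p, from a hairpin within the mir-290 to mir-295 cluster, occurs in no other RefSeq mouse form. No mature sequence is shown for mir-715, mir-689-1, mir-689-2, mir-1906, mir-699, mir-1893 and mir-7a-1.

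The read counts of all genes summed to 29596294 in the WT library and 25717811 in the library labelled Prep1-/-. Pknox1 itself kept 332 reads against 505 in the WT library, so that library is named by its label and every direction below rests on it. By immunoblot, the study reports loss of the Prep1 protein in both of its Prep1-/- lines, KO2 among them. All 8 ES cell markers had reads, with WT levels of 11.7 to 389 RPKM (reads scaled by gene length and library size). Their levels summed to 1201 RPKM in WT and 1469 for Prep1-/-. The interval of the ratio, explained below, lay above 1 for 7 of the 8 and below 1 for Zfp42 (0.801, 0.684 to 0.934). Zfp42 is on chromosome 8, where the median ratio of 810 genes with 20 or more reads was 0.775. The part of this in the value of Zfp42 was not tested. The 6 fibroblast markers summed to 24 RPKM in WT and 29.8 in the library labelled Prep1-/-, with Lum at 0 and 2 reads. Col1a1 had 976 and 1186 reads (1.36, 1.25 to 1.48) and Postn 6 and 33 (5.43, 2.54 to 18), and the intervals of the others included 1. Levels of 4 endoderm markers summed to 1.97 and 1.09 RPKM, of 3 mesoderm markers to 23.7 and 7.99 RPKM, and of 3 trophectoderm markers to 7.38 and 3.02 RPKM. The sums for 3 neural markers were 8.24 and 9.22 RPKM. T held 20.5 of the 23.7 RPKM of the mesoderm markers in WT. The interval lay below 1 for 3 of the 4 endoderm, 2 of the 3 mesoderm and 2 of the 3 trophectoderm markers. For 1 of the 3 neural markers it lay above 1. It included 1 for Afp (1 and 6 reads, ratio 3.91), Tbx6 (1.01), Elf5 (3 and 7 reads, 2.24), Neurod1 (0.977) and Sox1 (1.26). The part of these marker differences in the values below was not tested. In bulk RNA, fewer cells of a type and less RNA per cell cannot be told apart.

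The reads were spread very unevenly over the 29 genes. They held 27222 reads of the WT library and 28317 of the library labelled Prep1-/-, which were 0.092% and 0.11% of all reads. Mir-715 alone, on chromosome 17, took 70.5% of these reads in WT and 77.1% in the library labelled Prep1-/-. With mir-689-2 and mir-703 the share rose to 93.1% and 94.8%. The median gene had 58 reads in both libraries together, and 16 of the 29 had fewer than 100. Just above the minimum stood mir-877 with 21 reads, mir-20a and mir-7a-1 with 22 and mir-22 with 23. Just below it were mir-363 with 19 reads (8 in WT, 11 in the library labelled Prep1-/-), mir-1199 with 18 (14 and 4) and mir-453 with 17 (11 and 6).

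**Figure D1:**
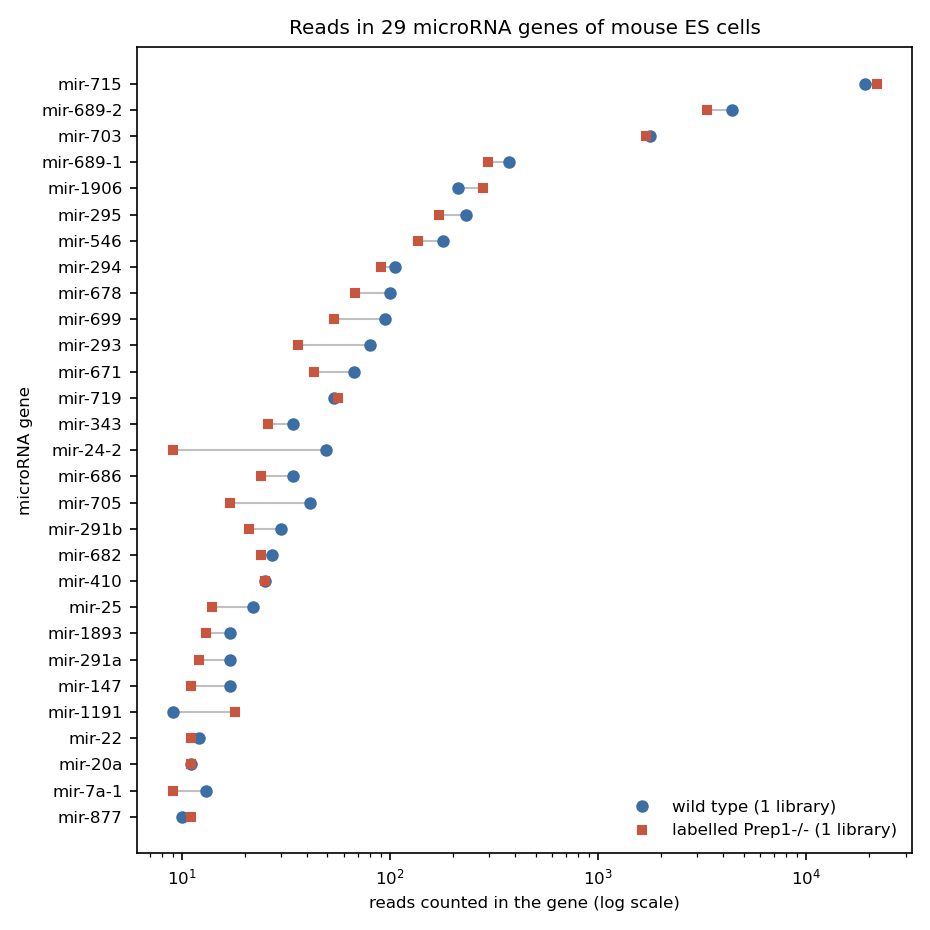
Reads counted in each of the 29 microRNA genes (horizontal axis, log scale), with a circle for the WT library and a square for the library labelled Prep1-/-. Mir-715 had 19181 and 21819 reads while mir-877 had 10 and 11, and the square lies far to the left of the circle for mir-24-2 (9 against 49).

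Most of the 29 genes lay within the transcript of another gene. Of the 26 genes that could be placed on mm9 (GENCODE M1), 5 were in coding exons, 5 in exons 3' of the coding sequence and 1 in an exon 5' of it. Another 1, mir-25, lay between the coding exons of a protein-coding gene, in an exon of some transcript. An exon of any annotated transcript was enough for a hairpin to be classed as exonic. A further 4 lay in exons of noncoding transcripts or a pseudogene, 2 in introns, 7 between genes and 1 opposite an intron of Zc3h7a. Mir-715, mir-689-1 and mir-699 had no entry in this annotation. The genes were on 16 chromosomes, with 7 on chromosome 7, where the mir-290 to mir-295 cluster lies. The library kit named in the labels does not mark strand, while the study speaks of transcripts of the sense strand, so that reads from overlapping genes on opposite strands may be mixed.

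The counts of the 3 genes with the most reads are uncertain. For mir-715, without coordinates or a RefSeq entry, the origin of the reads was not checked. The central 50 bases of mir-689-2 (chr16:11144218-11144274, plus strand) occurred at 3 places in mm9, on 3 chromosomes, so that its counts, 4403 in WT and 3318 for Prep1-/-, may hold reads from elsewhere. The Zc3h7a gene on the opposite strand had 818 and 690 reads over its whole length. Mir-703 (chr9:78326335-78326442, minus strand) lay in the exon 3' of the coding sequence of Eef1a1, which encodes a translation elongation factor, whereas RefSeq puts a hairpin of that name on chromosome 5, with 99.1% identity to the chromosome 9 sequence. Its reads, 1772 in WT and 1694 for Prep1-/-, cannot be told apart from those of Eef1a1 mRNA. For mir-1906 the central 50 bases had 2 copies on 2 chromosomes, and for the other 24 placed genes they were unique. The 20 other hairpins that could be compared with RefSeq were identical to mm9.

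The length behind the RPKM values of these short genes had to be established before levels could be compared. The deposited RPKM was proportional to the read count plus 1, divided by the annotated length less 50 bases, in 206 of 216 microRNA genes with coordinates and finite values. Mir-295, 69 bases long, was therefore counted as 19 bases, and its WT level of 378 RPKM would be 104 RPKM over its full length. For the longer mir-546, of 121 bases, the values were 78.2 and 45.9 RPKM. Mir-1906 was the only microRNA gene whose RPKM was listed as Inf. The KO/WT ratio (RPKM of the library labelled Prep1-/- over the WT RPKM) does not depend on this length, since it cancels.

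**Figure D2:**
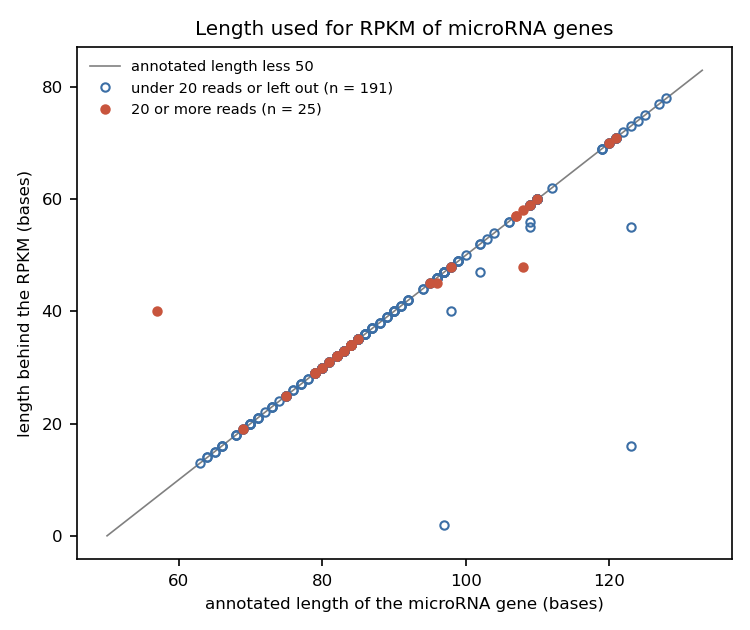
Length in bases that the deposited WT RPKM implies for each microRNA gene (vertical axis) against its annotated length in bases (horizontal axis), with filled points for the genes with 20 or more reads. Of 216 genes, 206 lie on the line at the annotated length less 50, and mir-689-2 (57 bases annotated, 40 behind the RPKM) lies above it.

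The KO/WT ratios of the 29 genes had a median of 0.851 (log2 -0.23), and 20 of 29 were below 1. Over all 15606 genes with 20 or more reads the median was 0.947 (log2 -0.08), and over the 7559 of them with fewer than 1000 reads it was 0.922. A ratio below 0.7 with a WT RPKM above 1 was found for 4 of the 29, or 13.8%, against 10.6% of the 15606 genes and 14.3% of those with fewer than 1000 reads. On the other side, 1 of the 29 (3.45%) had a ratio over 1.5 and over 1 RPKM for Prep1-/-, against 4.58% and 7.36%. Among 145 other genes with an annotated span under 200 bp the median was 0.997, with 16.6% in each direction. The share of the 29 genes below 0.7 was thus near that of genes with fewer than 1000 reads.

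Counting error covered most of the individual ratios. The exact (Clopper-Pearson) 95% interval of the ratio, which covers counting error between the 2 libraries only and takes reads as independent, lay below 1 for 5 of the 29 genes, against 36% of all genes with 20 or more reads and 27.2% of those with fewer than 1000. It lay above 1 for 2, against 20.6% and 15.2%, and included 1 for 22. The median summed reads were 58 for the 29 genes, 1084 for all genes and 192 for those with fewer than 1000, and more reads give narrower intervals. The genes above 1 were mir-715, with 19181 reads in WT and 21819 in the library labelled Prep1-/- (ratio 1.27, 1.25 to 1.3), and mir-1906, with 212 and 280 reads (1.48, 1.23 to 1.77). The genes below 1 were mir-24-2, mir-705, mir-293, mir-699 and mir-689-2, the last with a ratio of 0.843 (0.805 to 0.882). Mir-689-1, on chromosome 1, had 373 and 296 reads (0.888, 0.759 to 1.04).

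**Figure D3:**
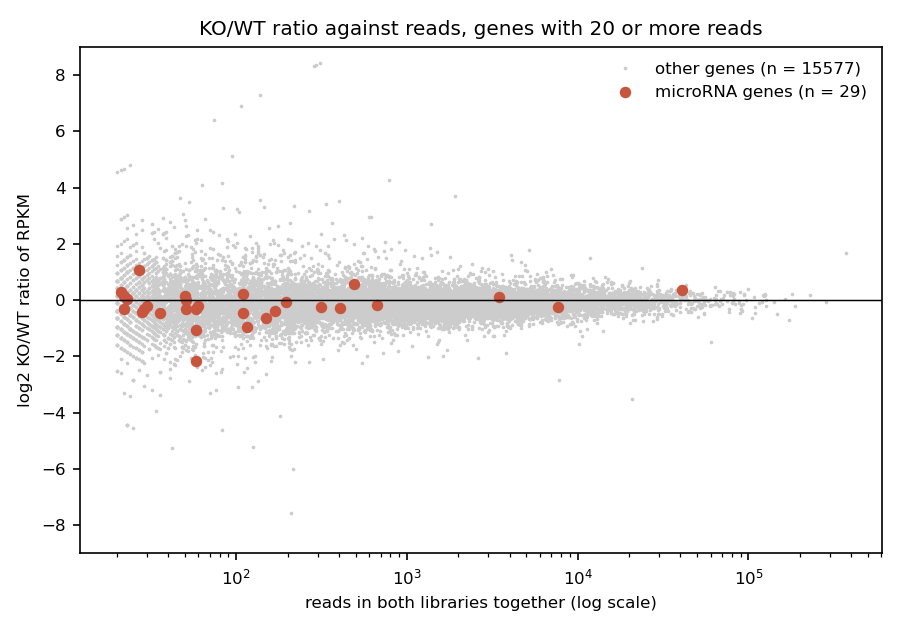
Log2 KO/WT ratio of RPKM (vertical axis) against the reads of both libraries together (horizontal axis, log scale) for 15606 genes with 20 or more reads, with the 29 microRNA genes as large points. The microRNA genes lie within the cloud of other genes with similar reads, from -2.16 for mir-24-2 to 1.09 for mir-1191.

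Of the genes below the 0.7 threshold, mir-24-2 had the lowest ratio of the 29. It lies on the plus strand of chromosome 8 (chr8:86732714-86732820) between genes, 57 bases from mir-27a and 223 bases from mir-23a, with which it is transcribed as the mir-23a cluster. It had 49 reads in the WT library and 9 in the library labelled Prep1-/-, a ratio of 0.224 (0.0887 to 0.422). Mir-27a went from 11 to 3 reads (0.373, 0.0546 to 1.15), and mir-23a had 2 reads in each library. Over the 3 genes together there were 62 and 14 reads, a ratio of 0.252 (0.131 to 0.456). Genes on chromosome 8 with 20 or more reads had a median ratio of 0.775 and 26.4% of the 810 were below 0.7, and the part of this in the value of mir-24-2 was not tested.

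Mir-705, mir-293 and mir-699 were the other genes below 0.7. Mir-705 (chr6:85286286-85286367, minus strand) lies 3' of the coding sequence of Rab11fip5, which encodes an effector of the Rab11 GTPase, and had 41 WT reads against 17 (0.479, 0.247 to 0.834). Mir-293, within the mir-290 to mir-295 cluster, had 80 against 36 reads (0.511, 0.33 to 0.755). Mir-699, on the minus strand of chromosome 4 and absent from the annotation used, had 95 against 54 reads (0.641, 0.446 to 0.897). Their neighbours in the order of ratios, mir-671 (67 and 43 reads, 0.723) and mir-25 (22 and 14 reads, 0.729), had intervals that included 1.

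The gene above 1.5 was mir-1191 (chr7:27990555-27990674, plus strand, between genes), with 9 WT reads and 18 in the library labelled Prep1-/-. Its ratio of 2.12 had an interval of 0.954 to 5.65, which included 1. Mir-1906 stood just under the threshold at 1.48, and at 1.52 to 1.54 when the libraries were scaled by summed reads, the upper quartile or the median ratio of expressed genes.

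**Figure D4:**
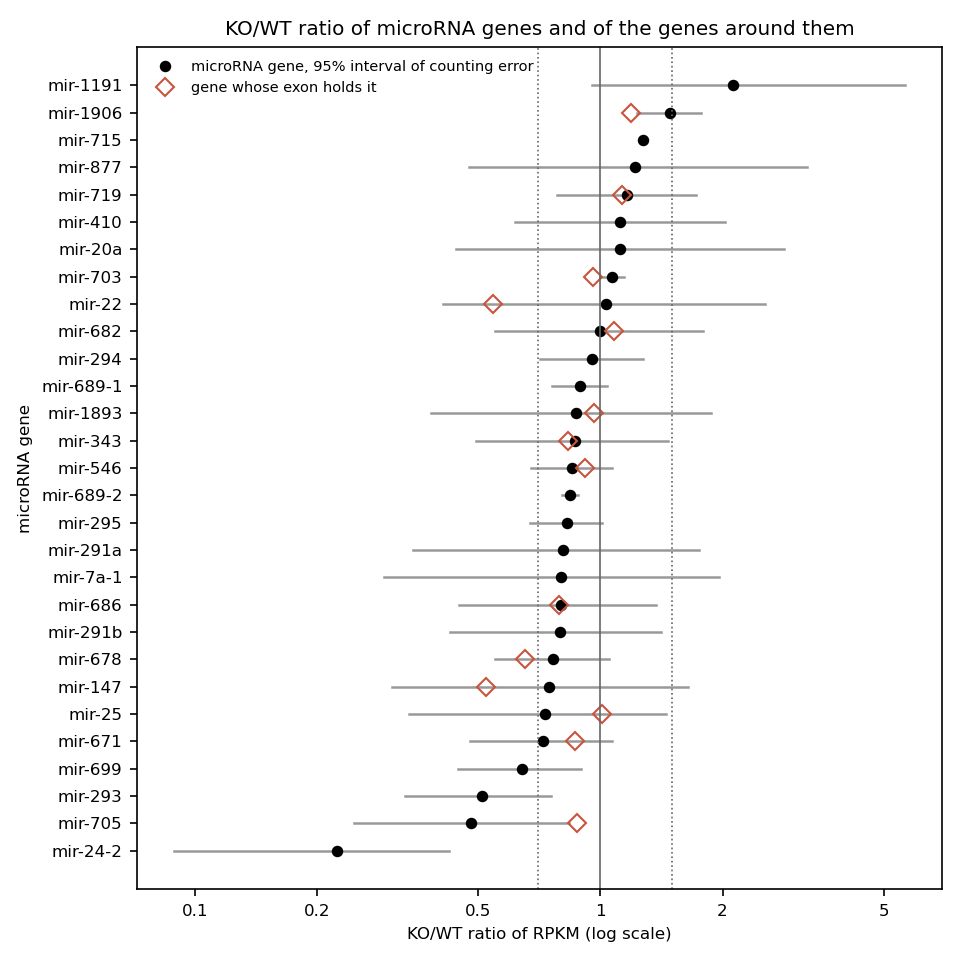
KO/WT ratio of RPKM (horizontal axis, log scale) for the 29 microRNA genes in order, with 95% intervals of counting error, and for the gene whose exon holds the hairpin (open diamonds). Dotted lines mark 0.7 and 1.5, and the diamond lies outside the interval for mir-705, mir-703 and mir-1906.

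The mir-290 to mir-295 cluster was the largest group, with 5 of its 7 genes among the 29. Over the 7 genes there were 482 WT reads and 338 in the library labelled Prep1-/-, a ratio of 0.784 (0.68 to 0.903). The interval of the cluster excludes 1 for counting error, while the median of all genes with 20 or more reads on chromosome 7 was 0.916. The summed reads of the 8 ES cell markers had a ratio of 1.32 (1.3 to 1.33), but Esrrb alone held 45815 of their 80096 WT reads. Single markers ran from 0.801 for Zfp42 to 1.58 for Klf4. All 7 ratios of the cluster were below 1, and they come from the same transcript. Mir-294 was closest to 1, with 106 and 90 reads (0.951, 0.709 to 1.27), and mir-295 had 232 and 171 (0.825, 0.672 to 1.01). Mir-291b had 30 and 21 reads (0.794), and mir-291a 17 and 12 (0.808). Below the minimum of 20 were mir-290, with 7 and 5 reads, and mir-292, with 10 and 3. The interval of mir-293 overlapped that of each other gene of the cluster.

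Reads rose toward the 3' end of the cluster in both libraries. The hairpin starts lie within 2147 bases on the plus strand of chromosome 7, from mir-290 at chr7:3218627-3218709 to mir-295 at chr7:3220774-3220842. WT reads per base of hairpin were 0.0843 for mir-290, 0.38 for mir-291b, 1.26 for mir-294 and 3.36 for mir-295. In the library labelled Prep1-/- the same genes had 0.0602, 0.266, 1.07 and 2.48 reads per base. Only mir-292 broke the order, with fewer reads than mir-291a on its 5' side in both libraries.

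**Figure D5:**
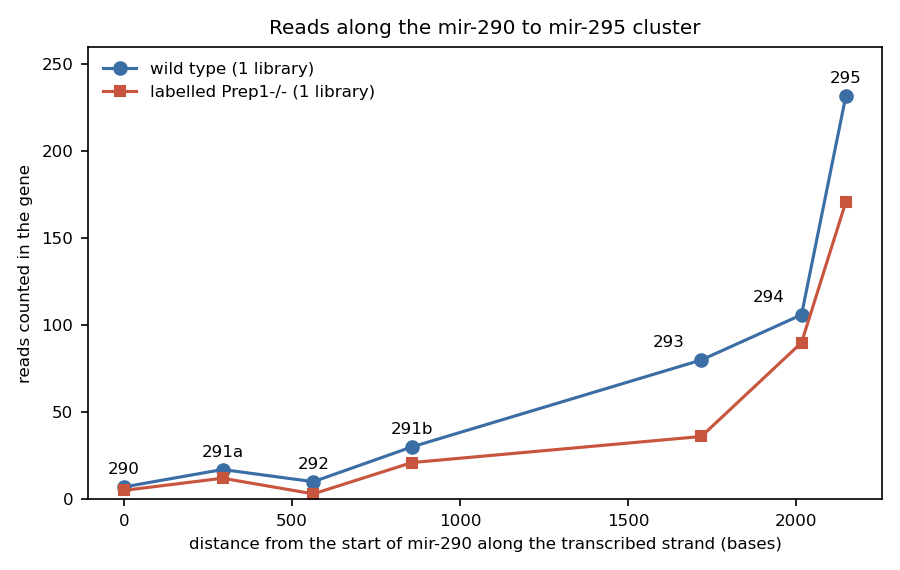
Reads counted in the 7 hairpins of the mir-290 to mir-295 cluster (vertical axis) against the distance of each hairpin's start from that of mir-290 in bases (horizontal axis), with circles for WT and squares for the library labelled Prep1-/-. Both lines rise from 7 and 5 reads at mir-290 to 232 and 171 at mir-295.

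For members of other known clusters the counts were small. Mir-20a, with 11 reads in each library (1.12, 0.44 to 2.84), lies in Mir17hg, the host transcript of the mir-17-92 cluster, which promotes proliferation. Over 6 genes of that cluster there were 28 WT reads and 35 in the library labelled Prep1-/-. Mir-25, of the mir-106b-25 cluster, lies between coding exons of Mcm7, a subunit of the replicative helicase. Some annotated transcript of Mcm7 has an exon there, and others may have an intron. The 3 genes of the mir-106b-25 cluster had 29 and 18 reads (0.694, 0.363 to 1.29). None of 7 let-7 genes found, 3 genes of the mir-302 cluster (mir-302a, mir-302d and mir-367) or 3 of the mir-200 family reached 20 reads. The let-7 genes, whose mature forms are blocked by Lin28 in ES cells, had 8 and 6 reads in all. Those of the mir-302 cluster had 5 and 1, the last from mir-367, and those of the mir-200 family 2 and 3.

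Mir-1906 and mir-410 lie in noncoding RNAs of the imprinted Dlk1-Dio3 domain on chromosome 12. Mir-1906 (chr12:110782751-110782830, plus strand) is in an exon of Meg3, a long noncoding RNA made from the maternal allele, with 9387 WT reads and 10008 in the library labelled Prep1-/-. The ratio of Meg3 was 1.19 (1.16 to 1.23), below the interval of mir-1906 given above. Mir-410 lies in an exon of Mirg, which was not in the files, and had 25 reads in each library (1.12, 0.616 to 2.03).

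The ratio of the gene around a hairpin was compared for the 14 pairs in which a member lay in an exon of a gene of the files on the same strand. In 11 of 14 pairs the ratio of that gene lay inside the interval of the member. The exceptions were mir-1906 in Meg3, mir-703 in Eef1a1 (1.07, 0.999 to 1.14, against 0.959) and mir-705 in Rab11fip5 (0.479 against 0.873). Eef1a1 had 4366 and 3743 reads, and Rab11fip5 1996 and 1559. Mir-682, in the pseudogene Gm4149, had 27 and 24 reads and a ratio of 0.998, against 1.08 for Gm4149 with 32 and 31. The intervals of many members were wide, so that falling inside one is a weak criterion.

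Some hairpins lay in genes that themselves passed the 0.7 threshold. Prmt2, which encodes an arginine methyltransferase, had 3100 WT reads and 1806 in the library labelled Prep1-/- (0.652, 0.614 to 0.691), and mir-678 3' of its coding sequence had 100 and 68 (0.764, 0.55 to 1.05). AA467197 had 140 and 65 reads (0.523, 0.381 to 0.702), and mir-147 3' of its coding sequence had 17 and 11 (0.745, 0.306 to 1.64). Tlcd2 had 162 and 78 reads (0.542, 0.406 to 0.71), while mir-22 had 12 and 11 (1.03, 0.41 to 2.54). Mir-22 also lies in an exon of the noncoding transcript 2210403K04Rik, which was not in the files. For all 3 hairpins the interval included 1.

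For each hairpin inside a coding exon, the ratio of the gene around it lay inside the interval of the member. Most of these intervals were wide. Reads in such a hairpin can also come from the mRNA of that gene, so the 2 ratios are not independent. Mir-719 in Nupl1, which encodes a nucleoporin, had 54 and 56 reads and a ratio of 1.16 (0.783 to 1.72), against 1.13 for the whole gene. Mir-343 in Ercc2, a helicase of transcription and DNA repair, had 34 and 26 reads, with 0.863 (0.493 to 1.47) against 0.83. Mir-686 in Psmb5, a catalytic subunit of the proteasome, had 34 and 24 reads, with 0.799 (0.448 to 1.37) against 0.792. The remaining hairpins in coding exons were mir-671 in Chpf2, which encodes a chondroitin synthesis enzyme (0.723 against 0.863), and mir-1893 in Epc1, which encodes a subunit of the NuA4 acetyltransferase complex (17 and 13 reads, 0.87 against 0.964). Mir-546, 3' of the coding sequence of Ctdsp2, a phosphatase of RNA polymerase II, had 179 and 136 reads, with 0.851 (0.675 to 1.07) against 0.915.

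The introns of Hnrnpk, an RNA-binding protein gene, and of Abcf1, a translation factor gene, held mir-7a-1 and mir-877. Mir-7a-1 had 13 and 9 reads (0.799, 0.292 to 1.96), against 0.855 for Hnrnpk, and mir-877 had 10 and 11 reads (1.22, 0.474 to 3.23), against 1.09 for Abcf1. Both genes around them lay inside these intervals.

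Levels set per length depended on the subtraction of 50 bases. By the deposited RPKM, the member was above the gene around it in WT in 11 of 13 pairs with finite values, and with the full length of the gene model in 7 of 13. Mir-678, at 91.6 RPKM or 37.1 RPKM over its full length, was above Prmt2 at 23.7 RPKM on either scale. Mir-686, at 18.3 or 9.9 RPKM, was above Psmb5 at 13.2 RPKM on the first scale and below it on the second. Mir-25 was far below Mcm7 on both scales (20.9 or 8.44 against 88.5 RPKM). Hairpins classed as intronic were also far below their genes: mir-7a-1 stood at 7.44 RPKM against 262 for Hnrnpk, and mir-877 at 9.69 RPKM against 72.9 for Abcf1.

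The placed genes also differed in how well their annotated sequence pairs with itself, computed with RNAfold. In the 5 members of the mir-290 to mir-295 cluster, 75 to 80.5% of bases were paired in the predicted fold, with a median of 75.9%. In the 12 hairpins in exons of protein-coding genes the share was 58.2 to 75.8%, with a median of 69.5%, and mir-719 had the lowest. Mir-1906 had 50%, the lowest of the 26 placed genes, and mir-7a-1 had 81.5%, the highest. Folding energies per 100 bases ran from -19 kcal/mol for mir-703 to -56.1 kcal/mol for mir-671. A predicted fold is a description of the sequence and does not show processing.

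Prep1 peaks were then located around the 26 placed genes. A peak lay within 20 kb of 14 of the 26, or 53.8%, against 29.7% of genes with 20 or more reads, 24.4% of all annotated genes of the files and 14.7% of 190 microRNA genes under 20 reads. No test was made of these shares. The nearest peak was 1296 bases upstream of mir-1906, 1844 upstream of mir-22, 2589 downstream of mir-705, 2884 upstream of mir-20a, 4270 upstream of mir-343 and 4904 upstream of mir-671. For mir-24-2 it was 14221 bases downstream. The mir-290 to mir-295 cluster had its nearest peak 112091 bases upstream of mir-291a. Of the 5 genes with a ratio past a threshold, 2 had a peak within 20 kb (mir-705 and mir-24-2), mir-293 and mir-1191 had none, and mir-699 was not placed.

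The distance of these peaks to the start of the gene around the hairpin was measured for 12 members, and 5 of the 12 peaks lay within 1000 bases of it. The peak near mir-22 overlapped the annotated starts of both Tlcd2 and 2210403K04Rik. A peak also overlapped the start of Ercc2 and of Chpf2, lay 7 bases from that of Mcm7 and lay 506 bases from that of Hnrnpk. The peak near mir-20a was 1606 bases from the start of Mir17hg, and the peak near mir-1906 was 1914 bases from the annotated start of Meg3, inside the gene. The distances were 2194 bases for Ctdsp2, 6057 for AA467197, 9722 for Abcf1 and 14002 for Psmb5. For Rab11fip5 the peak near mir-705 was 40931 bases from the start.

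The letters TGANTGAC, the first 8 of the decamer that Prep1 and Pbx bind together, were searched on both strands. They occurred in 43.7% of the 3902 peaks and in 8.28% of regions of the same lengths 5 kb past each peak. They were in 6 of the 14 peaks within 20 kb of a member, namely those near mir-1906, mir-25, mir-689-2, mir-147, mir-686 and mir-546. The decamer of the study allows other letters at several positions and is reported in a larger share of its peaks. A peak without these exact letters can therefore still hold a Prep1 site. The windows for the peaks in Meg3, at the start of Mcm7 and upstream of AA467197 are shown with 30 bases on each side of the match, 5' to 3' on the strand that reads the motif, because among the 6 these are the peak nearest to a member, the peak nearest to a start and a peak near a gene below 0.7.
Meg3, chr12:110781311-110781378, minus strand of mm9: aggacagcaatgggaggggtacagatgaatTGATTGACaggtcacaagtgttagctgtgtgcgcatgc
Mcm7, chr5:138613172-138613239, plus strand of mm9: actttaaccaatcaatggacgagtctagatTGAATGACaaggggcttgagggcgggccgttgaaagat
AA467197, chr2:122456292-122456359, minus strand of mm9: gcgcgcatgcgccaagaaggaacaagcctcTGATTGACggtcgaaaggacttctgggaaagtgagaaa
The match in capitals is TGATTGAC in the Meg3 and AA467197 peaks and TGAATGAC in the Mcm7 peak. The gene nearest to each of the 6 peaks with a match was not looked for. Of the genes around or opposite the members near these peaks, Meg3 had a ratio of 1.19 and Mcm7 1.01 (0.957 to 1.06). The others were Zc3h7a at 0.943, Ctdsp2 at 0.915, Psmb5 at 0.792 and AA467197 at 0.523. The starts of Psmb5 and AA467197 were 14002 and 6057 bases from their peaks. A match is a description of the sequence.

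Genes of the microRNA pathway were read alongside. Of 22 found, 1 passed the 0.7 threshold, against the 10.6% above, and none the 1.5 threshold, and their median log2 ratio was -0.06. The gene below 0.7 with a WT RPKM above 1 was Prkra, a partner of Dicer. It had 348 WT reads and 188 in the library labelled Prep1-/- (0.606, 0.503 to 0.723). Eif2c4 also had a ratio below 0.7 (0.671, 0.376 to 1.13), but its WT level of 0.279 RPKM was under that limit. Drosha, listed as Rnasen, had 11208 and 11159 reads (1.11, 1.08 to 1.14), its partner Dgcr8 4246 and 4205 (1.11, 1.06 to 1.16) and Dicer1 5758 and 5184 (1.01, 0.969 to 1.05). Lin28, which blocks let-7 maturation, had 11960 and 10886 reads (1.02, 0.992 to 1.04). Trim71, a let-7 target, had the highest ratio of the list, with 4637 and 5629 reads (1.36, 1.31 to 1.41).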

How the data were processed

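RNA-seq of 1 wild type and 1 Prep1-/- ES cell library and 1 Prep1 ChIP-seq peak list were used. The authors sequenced paired-end 50 bp reads of mRNA and assigned them to Ensembl 63 genes with RSEM. DESeq is also named, with mm9 as the build and no versions. The authors deposited per gene a read count, without normalization, and an RPKM value, which was made from the count plus 1. The peaks were mapped with BWA and called with MACS, and the deposited score per peak was a rounded fold enrichment. The input DNA sample was not used here.

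The KO/WT ratio was the ratio of RPKM, or 1.12 times the ratio of counts plus 1, for single genes. Ratios of clusters and lists were 1.12 times the ratio of summed counts, and all intervals used counts, without the added read. With 1 library per genotype no test was run. Intervals were exact binomial at 95% and cover counting error only. Coordinates came from GENCODE M1 (mm9), mature sequences from RefSeq (GRCm38.p6). The members and lists were chosen with earlier results of these data known. Named genes were all members, the genes around them, fixed microRNA clusters, microRNA pathway genes and those next to the read minimum. The interval script was tested on simulated data. Python 3.11.15, numpy 2.4.6, pandas 2.3.3, scipy 1.17.1, matplotlib 3.10.9, Biopython 1.88 and RNAfold 2.7.2 were used.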

Additional observations from a re-analysis of the deposited data

How the results depend on the processing

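Ratios of single genes were also taken under other scalings, pseudocounts of 0.1 and 1 RPKM and counts without the added read. Of 172 such ratios, 168 stayed inside the interval of the main value, and 4, of mir-715 and mir-689-2, left it. The other scalings changed every ratio by a factor of 1.03 to 1.05 only. Most intervals were far wider, so that staying inside is a weak criterion. No ratio past a threshold changed side of 1. The 4 genes below 0.7 became 2 with thresholds of 0.5 and 2 and 10 with a minimum of 10 reads. The 1 gene above 1.5 became 2 when libraries were scaled by summed reads, by the median ratio of expressed genes or by the upper quartile, 4 with a minimum of 10 reads and 0 with a minimum of 50. These minima gave 44 and 20 genes in place of 29, and the counts change with the genes admitted. The 14 genes with a peak within 20 kb became 6 within 5 kb, 15 within 100 kb and 10 with only the peaks of higher score. Shares over all genes were not computed at these other thresholds, minima, scalings and peak settings, so these counts have no background beside them. The 11 genes above the gene around them became 7 with the full length, chosen after seeing the values. No paired analysis was possible because each genotype had 1 library, and no library could be left out. Depth limits most values, since 16 of 29 genes had under 100 reads.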
